A study of Homo sapiens with 2 samples.

Results

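The metallothionein genes described here are MT1E, MT1F, MT1G, MT1M, MT1X and MT2A, 6 of the 23307 genes with a RefSeq model in the deposited assemblies. A gene's models were its RefSeq transcripts plus any assembled model that shared an exact intron with them on the same strand. In both libraries MT2A, MT1E, MT1X and MT1F were detected, in that order of level per transcript length, while MT1G and MT1M were at or below 1 fragment. MT2A, MT1X and MT1F differed between the libraries by less than 2-fold under every measure. MT1E was listed at 0 in the library labelled USP49 knockdown by that choice of models, but 1216 fragments lay on a model of the same gene that skips its middle exon, and with these counted the level was close to that of the control library.

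Metallothioneins are small cytosolic proteins, rich in cysteine, that bind zinc, copper and cadmium through the sulphur atoms of those residues. Their genes lie in a cluster on chromosome 16, and MT2A is the most widely expressed form in human cells. Transcription is switched on by zinc and cadmium through MTF1, a zinc-sensing factor that binds metal response elements in the promoters, and by glucocorticoids and oxidants. The beta domain of the protein is encoded by the first and middle exons, and the alpha domain by the last exon.

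RNA came from HCT116, a human colorectal carcinoma line, in which all cells carried a tetracycline-inducible knockdown construct against USP49. USP49 is a protease that removes ubiquitin from histone H2B. There was 1 library labelled USP49 knockdown and 1 labelled control. The treatment text gives harvest at 36 h after doxycycline and is the same for both, so whether the control cells received doxycycline is not given in the sources used here. Poly(A) RNA was fragmented and copied from random hexamers, with no strand-marking step described. No clone or passage is named in the labels.

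The library labelled USP49 knockdown held 19958947 recovered fragments and the control library 16375509, a ratio of 1.22. Levels are FPKM, fragments per 1000 bases of transcript and per 1000000 fragments of the library, and every log2 ratio is of the library labelled USP49 knockdown over control. With 1 library per group there is no replicate check of any difference, and intervals below cover counting error only. USP49 itself had 1.10 FPKM (69 fragments) in the library labelled USP49 knockdown and 2.88 FPKM (206 fragments) in the control library, a log2 ratio of -0.88. An unnamed model with 168 fragments within the gene's span brought the count to 237 in the library labelled USP49 knockdown, and on USP49's RefSeq exons the levels were 1.10 and 0.907 FPKM in the libraries labelled USP49 knockdown and control. The USP49 RNA therefore did not settle the label, and the library is called by its label throughout. Of 10 epithelial colorectal markers, 6 reached 1 FPKM on exons, with sums of 550 FPKM in the library labelled USP49 knockdown and 604 FPKM in control. VIL1, CDX1 and CEACAM5 were at 0 in both libraries. Of 6 fibroblast markers 1 did, COL1A1, with list sums of 6.68 and 6.995 FPKM in the libraries labelled USP49 knockdown and control. None of 4 leukocyte and 3 endothelial markers did, with sums from 0.0792 to 0.125 FPKM over both lists and libraries.

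The coding sequences show how alike the members are and which exon is at issue in MT1E. They come from GENCODE release 29 transcripts on chromosome 16 that correspond to the RefSeq models in the files and have an exon 2 of the same length. The capitals mark this middle exon, exon 2.
MT1E: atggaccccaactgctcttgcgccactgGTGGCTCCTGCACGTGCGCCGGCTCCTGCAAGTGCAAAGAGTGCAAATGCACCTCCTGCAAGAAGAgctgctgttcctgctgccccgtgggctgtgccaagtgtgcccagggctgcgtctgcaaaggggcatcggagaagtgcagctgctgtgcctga
MT1F: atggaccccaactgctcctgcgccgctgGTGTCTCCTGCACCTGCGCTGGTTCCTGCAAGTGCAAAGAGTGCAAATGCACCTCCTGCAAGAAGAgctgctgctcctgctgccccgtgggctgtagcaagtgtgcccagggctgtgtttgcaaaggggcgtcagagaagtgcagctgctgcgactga
MT1X: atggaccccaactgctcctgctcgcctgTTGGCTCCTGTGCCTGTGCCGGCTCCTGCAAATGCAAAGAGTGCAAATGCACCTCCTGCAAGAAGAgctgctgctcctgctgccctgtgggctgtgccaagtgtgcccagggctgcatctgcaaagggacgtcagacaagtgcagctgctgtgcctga
MT2A: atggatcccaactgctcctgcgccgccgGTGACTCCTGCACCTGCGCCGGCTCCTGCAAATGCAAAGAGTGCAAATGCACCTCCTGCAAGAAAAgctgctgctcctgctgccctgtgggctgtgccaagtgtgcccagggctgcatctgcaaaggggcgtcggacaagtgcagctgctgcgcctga
Each of the 6 members has 186 coding bases in 3 exons, of 28, 66 and 92 bases, which give 61 codons before the stop. Of these codons 20 encode cysteine (32.8%). Between the 15 pairs of members the coding sequences were 88.7% to 95.2% identical, with a median of 91.4%. Exon 2 alone was 87.9% to 95.5% identical, with a median of 92.4%. Exon 2 holds 66 bases in every member, so it can be left out without a change of reading frame, and the sequence without it keeps 13 cysteine codons. The RefSeq models differ more in their introns: the first intron spans 308 bases in MT2A and 580 to 596 bases in the other members.

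MT2A had the highest level of the members in both libraries. It lies on the plus strand of chromosome 16 at 55199979 to 55200910 (hg18) and its only model with fragments in either library was the RefSeq transcript of 419 bases. The value was 241 FPKM (interval of 2 Poisson SD, 229 to 252) in the library labelled USP49 knockdown, from 1788 fragments. In the control library it was 267 FPKM (254 to 280), from 1627 fragments. The value in the library labelled USP49 knockdown was the lower, at a log2 ratio of -0.15 with a pseudocount of 1 FPKM, and the intervals did not overlap. Differences beyond counting error were common among all genes. With models named by intron or splice sites, the counting interval of the fragment ratio lay below 1 in 18.8% of 11637 genes and above 1 in 18.7%. Among the 11635 genes that averaged at least 1 FPKM over both libraries, MT2A ranked 111 in the library labelled USP49 knockdown and 89 in the control library.

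MT1E, a cadmium- and zinc-inducible member, lies on the plus strand at 55217086 to 55218525 (hg18), and its RefSeq transcript of 506 bases has 3 exons. By the RefSeq transcript and models with an exact shared intron, MT1E was listed at 0 in the library labelled USP49 knockdown and had 138 FPKM (129 to 146) in the control library, from 1034 fragments. On that measure the log2 ratio was -7.11, a value set by the pseudocount and no bound on the size. The same locus in the library labelled USP49 knockdown carried an assembled model at 55217056 to 55218532 with 1216 fragments and 142 FPKM (134 to 150). It joined exon 1 to exon 3 across an intron of 1000 bases, 55217293 to 55218292, and so left out exon 2 at 55217879 to 55217944. Neither intron of the RefSeq transcript is in this model, which is why the exact-intron rule gave it no name. Its ends lay 30 bases upstream and 7 bases downstream of the RefSeq ends, and 440 of its 477 bases lay in RefSeq exons.

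The splice sites used by the model are both annotated for MT1E. GENCODE release 29 has a protein-coding MT1E transcript with an intron of the same length, 1000 bases. The junction is shown because it is the sequence that tells the skipped form from the full one, with the last 15 bases of exon 1 in lower case and the first 15 of exon 3 in capitals.
MT1E, exon 1 to exon 3: gctcttgcgccactgGCTGCTGTTCCTGCT
In each library a single model with fragments overlapped the MT1E exons, and that model held all of them: the skipping form in the library labelled USP49 knockdown and the full RefSeq form in the control library. The files mark the skipping model as having full read support and the RefSeq models of all 6 members, in both libraries, as not having it. The assemblies hold no read positions, so fragments over exon 2 or over either junction could not be counted, and how many transcripts lacked exon 2 in either library was not measured.

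**Figure D1:**
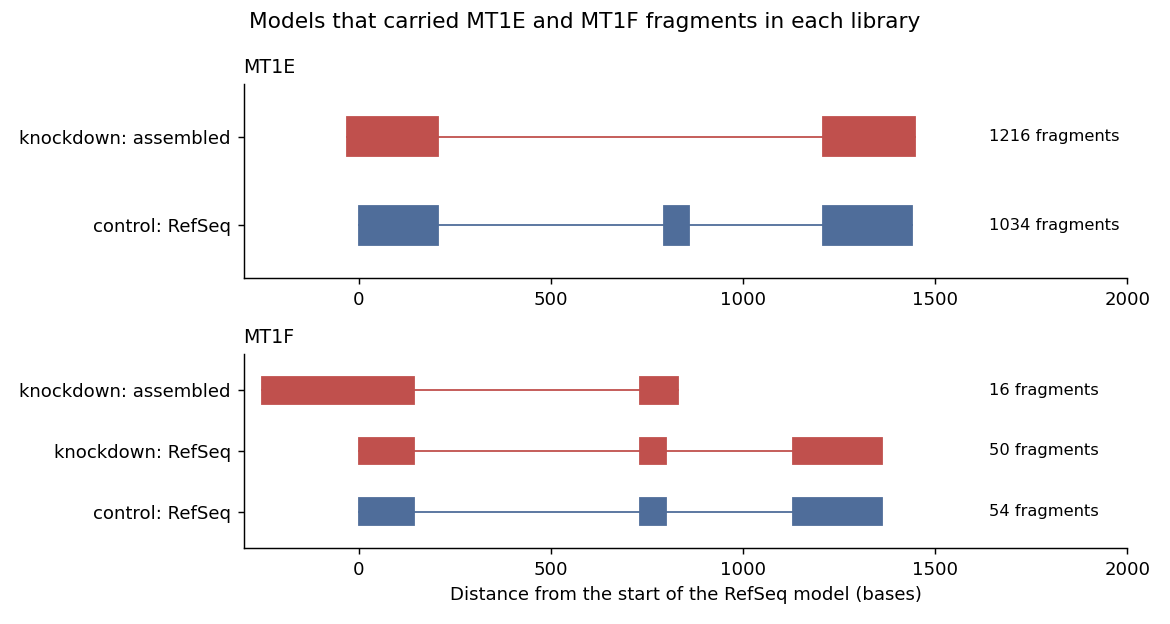
Models that held the fragments of MT1E (top) and MT1F (bottom) in the library labelled USP49 knockdown (red) and the control library (blue), with exons as boxes, introns as lines and distance from the RefSeq start in bases on the x axis. The MT1E model of the library labelled USP49 knockdown held 1216 fragments and has no middle exon, while that of the control library held 1034 and has all 3.

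With assembled models also named where every intron joins splice sites of a single RefSeq gene, a measure added after the data were seen, MT1E had 142 FPKM in the library labelled USP49 knockdown and 138 FPKM in the control library. The log2 ratio was then 0.04 and the intervals overlapped. The depth-scaled ratio of fragments was 0.965, with an exact 95% interval of 0.887 to 1.049. As fragment density on the RefSeq exons, MT1E had 122 FPKM in the library labelled USP49 knockdown and 138 FPKM in the control library, a log2 ratio of -0.17 and a fragment ratio of 0.890 (0.817 to 0.970). The sign thus depended on the measure: the first divides by the length of the shorter model, and the density spreads the fragments evenly over each model and counts those on RefSeq exons. Under splice-site naming MT1E ranked 370 in the library labelled USP49 knockdown and 376 in the control library, of 11637 genes.

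MT1X lies on the plus strand at 55273883 to 55275609 (hg18) and had fragments only on its RefSeq transcript of 404 bases. Its level was 38.0 FPKM (33.4 to 42.7) in the library labelled USP49 knockdown, from 271 fragments. In the control library it was 41.1 FPKM (35.8 to 46.4), from 240 fragments. The log2 ratio was -0.11 and the fragment ratio 0.926 (0.776 to 1.11), so the difference was within counting error.

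MT1F, on the plus strand at 55249356 to 55250716 (hg18), was the lowest of the 4 detected members. It had 8.15 FPKM (5.31 to 11) in the library labelled USP49 knockdown and 8.37 FPKM (6.09 to 10.6) in the control library. The interval in the library labelled USP49 knockdown adds the bounds of a RefSeq and an assembled model. The fragments numbered 66 in the library labelled USP49 knockdown and 54 in the control library, a depth-scaled ratio of 1.00 (0.689 to 1.46). In the library labelled USP49 knockdown 24.1% of them were assigned to an assembled model that shares the first intron, starts upstream at 55249105 and ends in the second intron at 55250186. Its second exon has 99 bases, against 66 in the RefSeq transcript. The RefSeq transcript alone had 6.37 FPKM in the library labelled USP49 knockdown and 8.37 FPKM in the control library, a log2 ratio of -0.35, against -0.03 for the sum of both models and -0.19 for density on RefSeq exons.

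MT1G, on the minus strand at 55258154 to 55259478 (hg18), had 1 fragment in the library labelled USP49 knockdown and 0 in the control library. MT1M, on the plus strand at 55224035 to 55225399, had 0 in both. The exact 95% interval of the 1 MT1G fragment was 0.0253 to 5.57 fragments. For a count of 0 a floor of 3 fragments was used, the one-sided limit, while the upper end of the exact two-sided 95% interval is 3.69 fragments. That floor was 0.525 FPKM for MT1G in the control library, and for MT1M 0.382 FPKM in the library labelled USP49 knockdown and 0.466 FPKM in the control library. Neither gene reached a mean of 1 FPKM, and no difference was detectable at this depth.

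**Figure D2:**
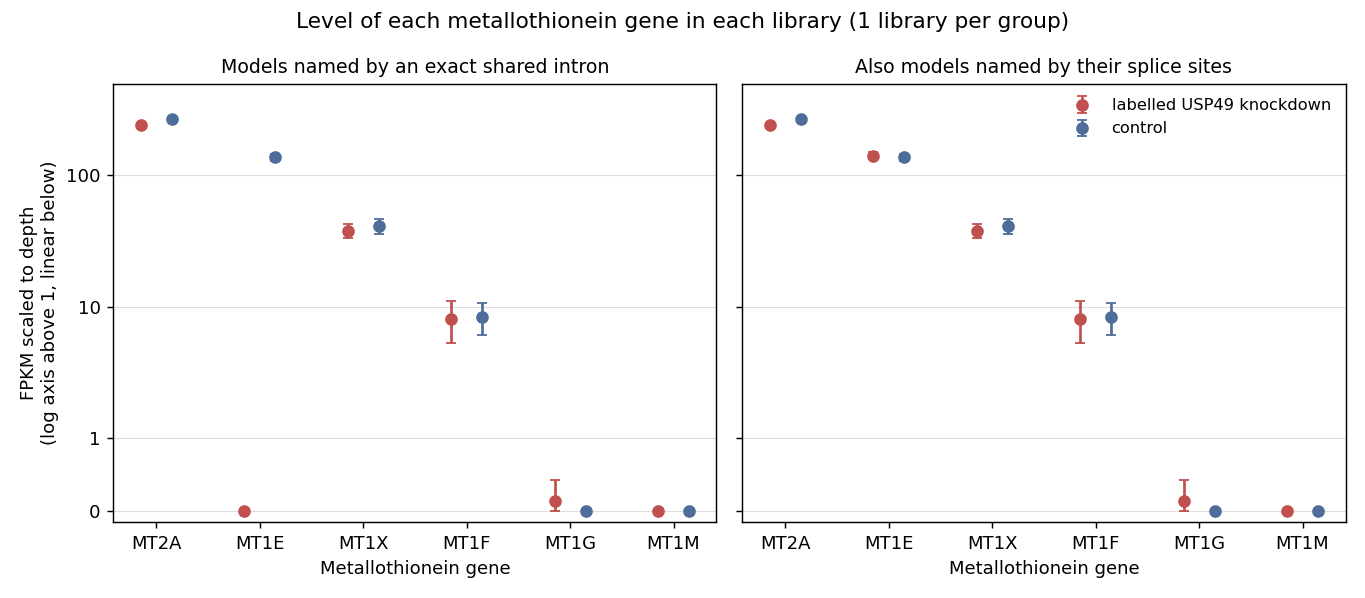
Level of each metallothionein gene in the library labelled USP49 knockdown (red, left of each pair) and the control library (blue), in FPKM scaled to depth on an axis that is logarithmic above 1 and linear below. Intervals are 2 Poisson SD, except for MT1F in the library labelled USP49 knockdown, where the bounds of its 2 models were added. MT1E in the library labelled USP49 knockdown is at 0 where models are named by an exact shared intron (left panel) and at 142 FPKM where they are also named by their splice sites (right panel).

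The order of levels per length was the same in both libraries once the skipping model was counted. MT2A stood above MT1E, MT1E above MT1X and MT1X above MT1F, and no neighbouring pair of these had overlapping intervals in either library. MT1G and MT1M came last and could not be ordered. As a share of the fragments of all 6 members, with splice-site naming, MT2A made up 53.5% (exact 95% interval 51.8% to 55.2%) in the library labelled USP49 knockdown and 55.1% (53.2% to 56.9%) in the control library. MT1E made up 36.4% (34.8% to 38.0%) in the library labelled USP49 knockdown and 35.0% (33.3% to 36.7%) in the control library. The share of MT1X was 8.11% in the library labelled USP49 knockdown and 8.12% in the control library, and that of MT1F was 1.97% in the library labelled USP49 knockdown and 1.83% in the control library. For each gene the intervals of the share overlapped between the libraries.

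Of the 6 members, 4 had a mean of 1 FPKM or more and could be set against other genes. Models with an exact shared intron put 1 of the 4, MT1E, at 2-fold or more lower in the library labelled USP49 knockdown, where 1.83% of 11635 genes were called lower and 1.59% higher. With no scaling for depth the calls over all genes leaned the other way, 64.5% of them higher in the library labelled USP49 knockdown against 46.5% with scaling, as the median of all genes moved to 0.26. Under splice-site naming 0 of the 4 members passed 2-fold in either direction, against 3.42% of 11637 genes. On exon density 0 of 4 passed, against 0.786% of 12083 genes with models of either strand and 1.14% of 11754 with models of the gene's strand. Being listed at 0 in a single library was common among such calls: 117 of the 213 genes called lower were at 0 in the library labelled USP49 knockdown, and 102 of the 185 called higher were at 0 in the control library. Of the 117, 96 had a density on exons and 65 of these were within 2-fold by it. MT1E was among the 10 of the 117 with a mean of 10 FPKM or more, and splice-site naming gave a value to 1 of the 117, MT1E.

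The 4 detected members had a median log2 ratio of -0.13 by models with an exact shared intron, against -0.0018 for all genes. Singly, MT2A, MT1X and MT1F lay within the range of -0.81 to 0.75 that held 95% of all genes on that measure, and MT1E, at -7.11, lay outside it. On exon density the 4 ratios lay between -0.19 and -0.11, with a median of -0.16, while all genes had a median of -0.0039 and a lower quartile of -0.09. The library labelled USP49 knockdown thus had the lower density for each of the 4, by less than 2-fold, and all 4 lay within the range of -0.32 to 0.25 that held 95% of genes. The interval of the fragment ratio held 1 for MT1X, at 0.926 (0.776 to 1.11), and for MT1F, at 0.866 (0.586 to 1.28). Density also drops fragments of assembled models beyond RefSeq exons, and only the library labelled USP49 knockdown had such models here. There it lowered MT1E from 1216 to 1122 fragments and MT1F from 66.0 to 56.9. The 144 genes with 300 to 600 exonic bases, the length of the members, had a median of -0.06, and 67.4% of them were below 0, in a split by length made after the ratios were seen. These 144 genes include the 4 detected members. Of the 6 measured epithelial markers 5 were below 0 on the same measure, with a median of -0.14. The lists described below did not lean that way as a whole. Above 0 were 6 of 10 promoter factors, 3 of 7 zinc exporters, 6 of 10 zinc importers and 8 of 13 heavy-metal genes. So were 8 of 13 copper genes, 7 of 13 iron genes and 10 of 16 genes beside the cluster. The part of transcript length in the members' ratios was not tested. With splice-site naming MT1E was at 0.04 and the other 3 were below 0. MT2A was the member with a fragment ratio whose interval lay below 1 under that naming, at 0.902 (0.843 to 0.965), as did the intervals of 18.8% of genes, while those of 18.7% lay above 1. As these are bulk values, fewer cells with a transcript and less of it per cell cannot be told apart.

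**Figure D3:**
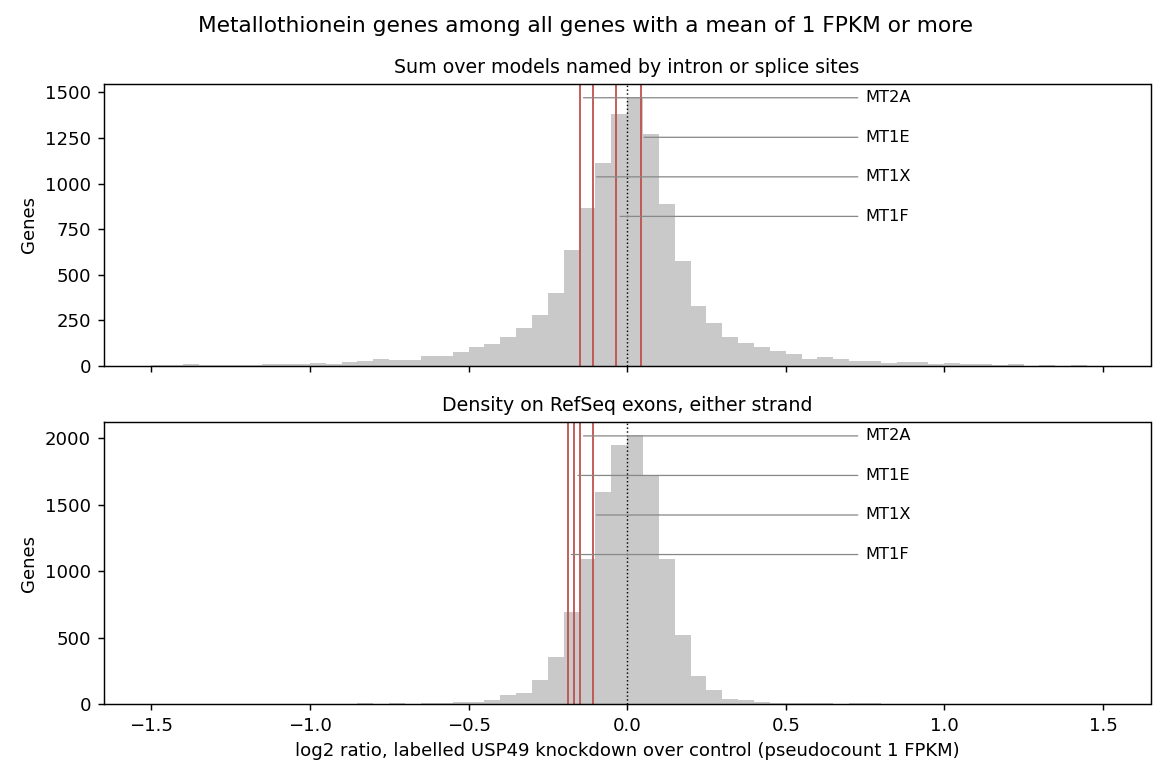
Distribution of log2 ratios of the library labelled USP49 knockdown over control for all genes averaging at least 1 FPKM (grey bars, number of genes), by the sum over models named by intron or splice sites (top) and by density on RefSeq exons (bottom). Red lines mark the 4 detected metallothionein genes, which lie between -0.15 and 0.04 in the top panel and between -0.19 and -0.11 in the bottom panel.

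Summed over the 6 members, the fragments numbered 3342 in the library labelled USP49 knockdown and 2955 in the control library with splice-site naming, which is 167 per 1000000 fragments in the library labelled USP49 knockdown and 180.5 in the control library. The depth-scaled ratio was 0.928 (0.883 to 0.975). MT2A, with 53.5% of these fragments in the library labelled USP49 knockdown, was at 0.902 (0.843 to 0.965). Singly, the intervals of MT1E (0.887 to 1.049), MT1X (0.776 to 1.11) and MT1F (0.689 to 1.46) held 1. The sum is thus weighted to MT2A and does not describe each member. By models with an exact shared intron the sum was 2126 in the library labelled USP49 knockdown and 2955 in the control library, a ratio of 0.590 (0.558 to 0.624). By exon density it was 3239 and 2955 in the libraries labelled USP49 knockdown and control, a ratio of 0.899 (0.855 to 0.946). MT1E alone accounts for the 1216 fragments by which the first and the second sum differ in the library labelled USP49 knockdown.

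Because the members are near copies of each other, part of their fragments could have been placed on a relative. Reads of the study were of a length not given in the sources used here, so sharing was described with windows of 48 bases along each transcript. Of the MT1X windows 51.8% also occur in a transcript of another gene, and 100% of those that touch its exon 2. Of the 185 shared MT1X windows, 119 occur in AC026461.1, a GENCODE gene that is not among the metallothionein genes listed here. Its position was not compared with that of MT1X, so the MT1X share does not measure sharing among the members. MT1G and MT1M followed with 20.1% and 16.03% of windows, then MT2A with 11.3%, MT1E with 8.497% and MT1F with 6.35%. Over exon 2 of MT1E, 32 of 113 windows (28.3%) were shared, against 4 of 113 (3.54%) in MT2A. The other genes with MT1E windows were MT1F, MT1G and the pseudogenes MT1JP, MT1P3 and MT2P1, and MT1JP held all 39 of the shared windows. The values of these genes are therefore uncertain to the extent that fragments of shared sequence were divided, and that division was not tested. No model of a member overlapped an exon of another gene.

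**Figure D4:**
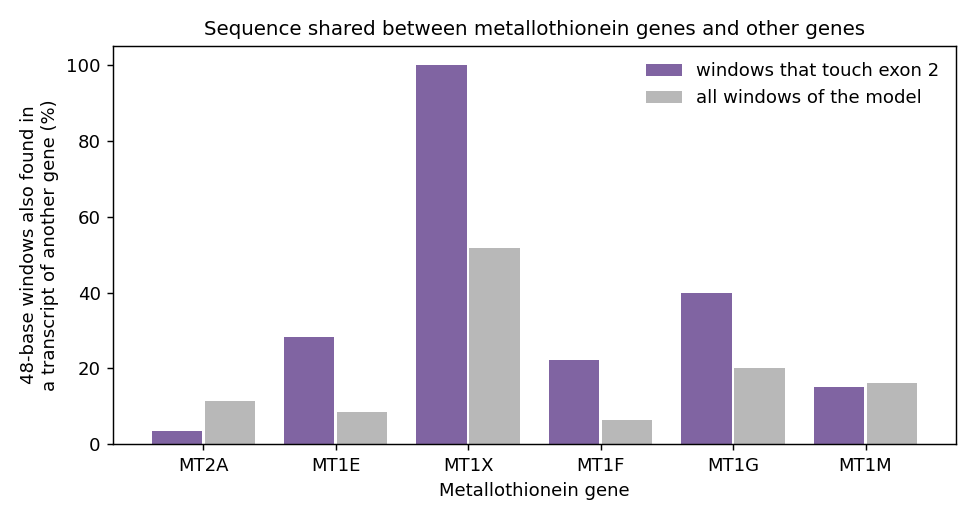
Share of 48-base windows of each metallothionein transcript that also occur in a transcript of another gene, in percent, for windows that touch exon 2 (purple) and for all windows of the transcript (grey). MT1X is the highest on both, at 100% and 51.8%.

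Other members of the family were at or near 0. Of 11 further metallothionein genes and pseudogenes, 9 had a symbol in the files. MT1A, MT1B and MT1H, MT1L (a noncoding RefSeq entry), the pseudogene MT1IP, MT3 (the form of the nervous system) and MT4 (the form of stratified epithelia) had 0 fragments in both libraries. The pseudogene MT1JP had 0 fragments in the library labelled USP49 knockdown and 1 in the control library. The pseudogene MT1DP had 1.35 FPKM in the library labelled USP49 knockdown and 1.599 FPKM in the control library, each from 9.14 fragments by its 2 RefSeq transcripts.

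Promoter sequences were at hand in RefSeq (GRCh38.p14) for MT2A and MT1X among the members and for MT1H, MT1B and MT4 among the other genes, and not for MT1E, MT1F, MT1G and MT1M. They were searched on both strands for the core of the metal response element, the site of MTF1, as TGCACNC or TGCGCNC. The 250 bases before the start are shown for the 2 members, and for MT1H as a gene with 0 fragments, with matches in capitals.
MT2A, chr16:56608334-56608583 (plus strand): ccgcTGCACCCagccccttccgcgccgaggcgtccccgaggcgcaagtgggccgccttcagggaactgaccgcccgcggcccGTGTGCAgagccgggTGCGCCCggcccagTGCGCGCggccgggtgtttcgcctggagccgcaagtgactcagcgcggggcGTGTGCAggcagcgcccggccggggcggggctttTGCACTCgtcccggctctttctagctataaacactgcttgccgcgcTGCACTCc
MT1X, chr16:56682220-56682469 (plus strand): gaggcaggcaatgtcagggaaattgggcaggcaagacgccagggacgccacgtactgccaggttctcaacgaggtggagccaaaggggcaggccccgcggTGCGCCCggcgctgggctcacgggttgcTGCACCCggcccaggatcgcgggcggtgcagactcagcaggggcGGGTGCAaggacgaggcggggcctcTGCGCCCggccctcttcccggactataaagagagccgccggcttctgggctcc
MT1H, chr16:56669564-56669813 (plus strand): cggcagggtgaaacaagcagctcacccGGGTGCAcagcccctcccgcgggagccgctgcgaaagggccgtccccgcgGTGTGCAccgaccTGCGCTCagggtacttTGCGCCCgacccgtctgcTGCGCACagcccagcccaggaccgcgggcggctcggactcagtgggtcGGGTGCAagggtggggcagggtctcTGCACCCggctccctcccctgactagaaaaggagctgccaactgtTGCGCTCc
MT2A held 7 matches, 5 on the plus strand and 2 on the minus strand, and MT1X held 4. MT1H held 8, MT1B 3 and MT4 3, and no matches overlapped. Among 35116 promoters of the same length 24.8% held at least 1 match, 0.370% at least 4 and 0.0313% at least 7. The bases TATAAA were present before the start of MT2A and MT1X and not of MT1H. A match is a description of the letters, and the number of matches did not order the genes by level, as MT1H had the most matches of the 5 and 0 fragments.

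MTF1 had 7.73 FPKM in the library labelled USP49 knockdown and 7.68 FPKM in the control library, a log2 ratio of 0.01. Of MTF1 and 9 other factors known to act at metallothionein promoters all 10 were measured and none passed 2-fold, against 3.42% of all genes, with a median of 0.01. MAFG and MAFK, small partners of NRF2, had the largest ratios by named models, with -0.73 for MAFG and 0.63 for MAFK. On exon density these were -0.01 for MAFG and -0.03 for MAFK. NR3C1, the glucocorticoid receptor, had 7.88 FPKM in the library labelled USP49 knockdown and 7.05 FPKM in the control library, with a log2 ratio of 0.14 on either measure.

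Every measured zinc transporter was within 2-fold, where 3.42% of all genes were past it by named models. A count of 0 in lists this short cannot be told from that share, here or in the lists below. Of 10 exporters of the SLC30 family 7 were measured, with a median log2 ratio of 0.04 by named models and -0.03 on exon density. SLC30A4 had a ratio of -0.45, SLC30A3 of 0.27 and SLC30A6 of 0.14, and on exon density -0.05, -0.05 and 0.15. Of 14 importers of the SLC39 family 10 were measured, with a median of 0.07 by named models and 0.04 on exon density. SLC39A4, the intestinal zinc importer, had 53.9 FPKM in the library labelled USP49 knockdown and 77.3 FPKM in the control library, a ratio of -0.51. Splice-site naming gave SLC39A4 75.7 FPKM in the library labelled USP49 knockdown and a ratio of -0.03. SLC39A11 had a ratio of 0.43 and SLC39A10 of 0.32 by named models, and -0.15 and 0.17 on exon density.

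Of 15 other genes that heavy metals induce 13 were measured and 0 passed 2-fold, against 3.42% of all genes by named models. Their median was -0.01 by named models and 0.10 on exon density. HMOX1, which degrades haem, had 23.8 FPKM in the library labelled USP49 knockdown and 20.7 FPKM in the control library, a ratio of 0.19. GCLM, a subunit of the enzyme that starts glutathione synthesis, had a ratio of 0.17, and TXNRD1, a thioredoxin reductase, had 0.15. The heat shock genes HSPA1A and HSPA1B, near-identical copies whose values are uncertain, were below 1 FPKM in both libraries.

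Copper and iron genes gave 0 of 13 measured past 2-fold in each list, against 3.42% of all genes by named models. By named models the copper genes had a median of 0.04 and the iron genes of 0.03. COX11, a copper factor of cytochrome c oxidase assembly, had a ratio of -0.80 by named models and -0.05 on exon density. COX17, a copper chaperone, had 16.5 FPKM in the library labelled USP49 knockdown and 20.6 FPKM in the control library, with a ratio of -0.30 and, on exon density, -0.26. SOD1, the copper and zinc superoxide dismutase, had -0.25 and, on exon density, -0.05. FTH1, the ferritin heavy chain, had -0.40 and, on exon density, -0.24. TFRC, the transferrin receptor, had 172 FPKM in the library labelled USP49 knockdown and 153 FPKM in the control library, a ratio of 0.17, and NCOA4, the ferritin autophagy receptor, had 0.18.

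On chromosome 16 beside the cluster, 16 of 20 listed genes were measured and 0 passed 2-fold, against 3.42% of all genes by named models. Their median was 0.04 on both measures. NLRC5, a regulator of class I antigen presentation genes, had 0.77 by named models and -0.13 on exon density. OGFOD1, a ribosomal protein hydroxylase, had 0.44 and, on exon density, 0.08. NUP93, a nuclear pore subunit, had -0.38 and, on exon density, 0.16, so the direction of both NLRC5 and NUP93 turned with the measure.

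**Figure D5:**
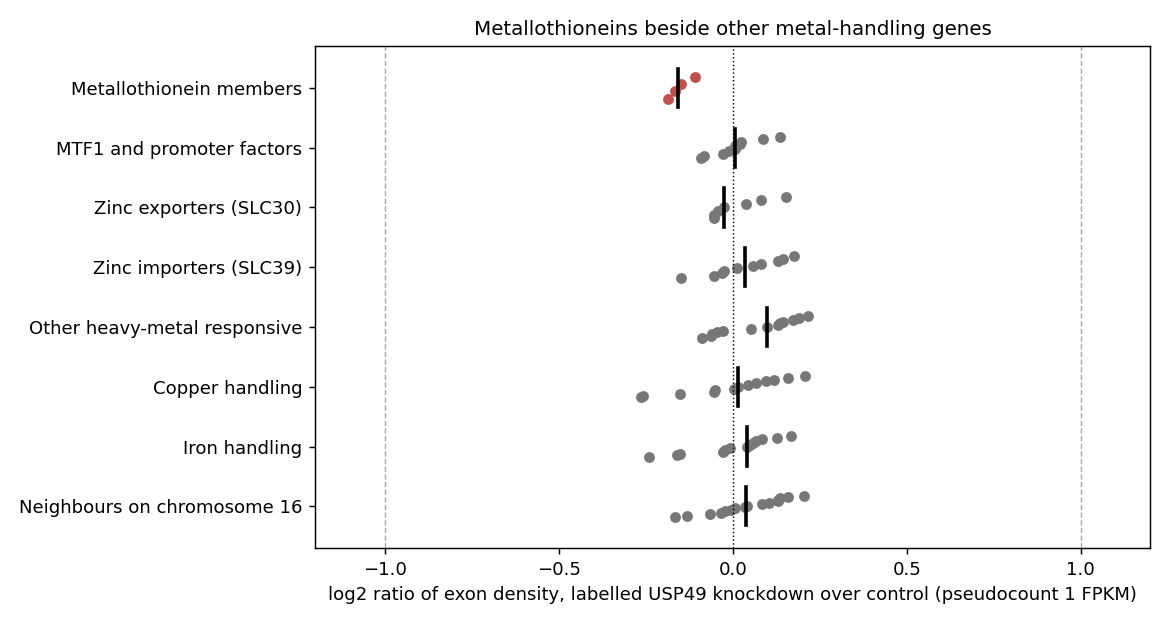
Log2 ratio of exon density, library labelled USP49 knockdown over control, for the detected metallothionein genes (red) and for the genes of 7 other lists (grey), with list medians as black bars and 2-fold as dashed lines. Every point lies within 2-fold, where 0.786% of 12083 genes were past it on this measure, and the metallothionein median is -0.16.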

How the data were processed

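The deposited values were FPKM per transcript model, with interval bounds, from Cufflinks assemblies of each library guided by RefSeq, per the file headers. Per the submitters' processing notes the tools were bedtools, Bowtie, Cufflinks, Picard, SAMtools and TopHat, without versions, on hg18. Depth per library is given with the results. In loci where a single model had a value, fragments were recovered by taking the deposited FPKM interval as ± 2 Poisson SD. They were whole within 0.02 in 93.2% of 22249 such loci of the library labelled USP49 knockdown and 93.4% of 20864 such control loci. All other models, among them both MT1F models of the library labelled USP49 knockdown, took their fragments from FPKM and length by the relation given next. The deposited FPKM were proportional to fragments over model length less 47 bases, with a constant factor of 2 in the divisor and no depth term. The origin of that factor is not given in the sources used here. Values were scaled to total recovered fragments. Unspliced assembled models had larger corrections of 252 bases in the library labelled USP49 knockdown and 246 in control.

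Gene values were sums over models, or fragment density on RefSeq exons for genes of 300 or more exonic bases. Ratios used a pseudocount of 1 FPKM, which understates changes of low genes, a minimum mean of 1 FPKM and a threshold of 2-fold. No p-value was computed, as each group had 1 library. Intervals of ratios are exact conditional binomial and those of shares Clopper-Pearson, both at 95%. They leave out everything but counting error, and PCR duplicates are not independent molecules. Scripts were tested on simulated data and ran in Python 3.11.15 with numpy 2.4.6, pandas 2.3.3, scipy 1.17.1, matplotlib 3.10.9 and Biopython 1.88. The members and lists were chosen with earlier results of these data known. USP49, the members, list genes past 2-fold, the 3 largest ratios per list and other metallothioneins with fragments were named by rule. MTF1, HSPA1A, HSPA1B, the markers and the genes at 0 were named after their values were seen. MT1HL1, MT1CP and FAM192A had no symbol in the files. Alternatives changed the pseudocount, minimum, scaling, models counted and division by length. Naming by splice sites and TPM over models of 300 or more bases were added after the data were seen.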

Additional observations from a re-analysis of the deposited data

Results flagged for a closer look

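MT1E had 1216 fragments in the library labelled USP49 knockdown on an assembled model that lies outside the naming by an exact shared intron, against 0 on its RefSeq transcript there. No such model was listed for MT1E in the control library. It stood out as a signal in a model that the planned measure did not use, and its values are given with the results.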

How the results depend on the processing

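No paired analysis was possible because there was 1 library per group, and for the same reason no replicate could be left out. The number of members past 2-fold, 1 by models with an exact shared intron, was 0 by splice-site naming and 0 by exon density on the gene's strand or on either strand, as these take in the MT1E model. MT1E itself turned to 0.0423 on the log2 scale under splice-site naming. The summed fragment ratio, 0.590 by those models, was 0.928 by splice-site naming, 0.899 by exon density on either choice of strand and 0.720 with no scaling for depth. The median log2 ratio of the members, -0.13, turned to 0.1535 with no scaling for depth, where the median of all genes was 0.2605. The other 13 settings kept that median within the counting spread of 0.189, 11 settings left the number past 2-fold at 1, and 3 kept the summed ratio within its interval. On TPM over all models 3 members were measured and 31.6% of the 19 calls over all genes were higher, as models under 300 bases held 98.1% of the deposited values in the library labelled USP49 knockdown and 97.9% in control. Depth limits the precision of MT1F, MT1G and MT1M, with 66 fragments or fewer in each library.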
